A study of Rattus norvegicus with 59 samples.

Results

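Fxyd1, Fxyd3 and Fxyd5 encode relatives of 1 family of small proteins that regulate the sodium pump. They were taken by gene name from a table of lung transcripts, 3 entries of the 2887 complete gene entries, and were grouped because Fxyd1 was known from these data to move against Fxyd3 and Fxyd5 in lungs that had inhaled silica. All 3 passed the filter on low values, a level of at least 1 FPKM in at least 4 libraries, which left 1278 entries for testing. Of the entry names found in a rat gene annotation, 99.3% were of chromosome 1. Ranks, shares and list counts below hold for these entries and not for all lung transcripts. FPKM is a fragment number scaled to transcript length and library size, so genes and libraries can be set side by side. It does not correct for libraries that differ in make-up, and results with other scalings are given below.

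FXYD proteins cross the membrane once, carry the amino acid motif that gives the family its name, and bind the Na,K-ATPase, the pump that exchanges sodium for potassium across the plasma membrane, changing its affinity for ions and its turnover. In the lung the pump sits on the basolateral side of alveolar and airway epithelium, where it drives the sodium and fluid absorption that keeps air spaces dry. FXYD1, also called phospholemman, is best known from heart, skeletal and smooth muscle, where protein kinases A and C release its inhibition of the pump. FXYD3, or Mat-8, and FXYD5, or dysadherin, are both known from epithelia, though not only there for FXYD5, which is also known for its effect on adhesion between cells.

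The lungs came from male Fischer F344 rats (F344/DuCrl), 3 months old at purchase, that breathed either air or crystalline silica, the dust that causes silicosis, in whole-body chambers. The silica rats inhaled 15 mg/m3 in 5 daily sessions of 6 h, and lungs of both treatments were taken at 6 times, 1, 3 and 6 months later and again at 9, 12 and 18 months. Each of the 12 groups held 5 rats except air at 9 months, with 4, which makes 29 air and 30 silica libraries, 1 library per rat from a piece of lung. The questions are how silica and air lungs compared at each time and whether the difference between them changed as time passed.

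The summed FPKM of the entries ranged from 12818 to 38613 per library. The highest sum, of air replicate 3 of 9 months, was 12795 without a single entry, LOC102553223. Without that entry silica replicate 5 of 3 months went from 31740 to 14626. Relative depth, estimated from the size of the smallest steps between values, ranged from 0.432 to 2.26. The lung label was checked on Napsa and Lpcat1, genes of surfactant-producing alveolar cells, at 71.5 to 95.0 and 45.1 to 57.6 FPKM in air. Markers of striated and heart muscle were also present at very unequal levels, for example Tnni3, the heart troponin I, at 0.679 to 59.7 FPKM in air and 0.192 to 86.7 in silica. One library, silica replicate 3 of 12 months, stood apart from its group: Cd177, a neutrophil gene, was at 12.7 FPKM there, within the 8.07 to 16.3 of air at that time and below the 31.8 to 46.8 of the other silica lungs. It was picked by the level of a gene that rose with silica, so leaving it out favours larger silica differences. Over all tested genes it was not the library least like its group. Its Pearson's r with the mean of the rest was 0.953, against 0.940 and 0.948 for air replicates 1 and 2 of 9 months. The 12-month differences, means, ratios and overlaps are given with and without silica replicate 3.

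In chromosome order in the RefSeq annotation of the rat assembly GRCr8, Fxyd5, Fxyd7 and Fxyd1 lie side by side on chromosome 1, followed by Lgi4 and Fxyd3. RefSeq stretches just before the annotated start of Fxyd1 (chr1:95418646-95418830, minus strand) and Fxyd5 (chr1:95404723-95404972, minus strand) are shown because these near neighbours moved in opposite directions. Capitals mark matches to the E box CANNTG and the GC box GGGCGG on either strand.
Fxyd1: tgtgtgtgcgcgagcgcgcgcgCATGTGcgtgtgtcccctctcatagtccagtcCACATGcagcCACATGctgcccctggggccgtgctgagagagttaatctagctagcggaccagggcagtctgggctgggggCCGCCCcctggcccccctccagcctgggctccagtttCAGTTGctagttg
Fxyd5: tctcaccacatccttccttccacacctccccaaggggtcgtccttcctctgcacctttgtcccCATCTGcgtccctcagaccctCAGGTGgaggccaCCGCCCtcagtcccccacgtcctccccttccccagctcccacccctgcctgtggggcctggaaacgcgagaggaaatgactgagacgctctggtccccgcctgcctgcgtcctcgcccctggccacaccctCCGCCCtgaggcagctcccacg

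The Fxyd1 stretch of 185 bases held 4 E boxes and 1 GC box, and the Fxyd5 stretch of 250 bases held 2 of each. All 33469 RefSeq promoter windows were cut to the same length from their far end, so those set beside Fxyd1 stop short of the start. At least 1 E box was in 55.2% and 65.5% of them and at least 1 GC box in 21.8% and 30.5%, so both matches are common. Neither stretch held an AP-1 match (TGANTCA, in 4.80% and 6.34% of windows), a TATA box (TATAAA), or a match to the NF-kB or CArG motifs by name, which says only that those letters are not in these windows. Both stretches were rich in G and C, 65.4% for Fxyd1 and 67.2% for Fxyd5, against medians of 50.8% and 51.2% over windows of their length.

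Fxyd1, the phospholemman gene, was lower in silica lungs over the 6 times together and was called lower at 9, 12 and 18 months. At 1 month the air lungs held 19.5, 19.1, 22.4, 21.2 and 22.3 FPKM, and the silica lungs 19.4, 16.3, 14.4, 14.5 and 16.6. Only the highest silica lung lay above the lowest air lung, and the difference did not pass the test (log2 difference −0.36 ± 0.15 SE, limma adjusted p = 0.134). At 3 months the lungs held 20.5, 16.3, 17.9, 14.3 and 17.2 FPKM in air and 13.9, 19.1, 14.8, 16.2 and 20.5 in silica. The groups lay on top of each other at that time (−0.03 ± 0.15, limma adjusted p = 0.896, 95% interval −0.34 to 0.27).

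At 6 months Fxyd1 was at 17.3, 15.8, 16.4, 15.3 and 13.6 FPKM in air and at 14.6, 12.0, 11.5, 12.3 and 12.5 in silica. The silica lung at 14.6 was the only one inside the air range, yet the difference of −0.31 ± 0.15 did not pass the test (limma adjusted p = 0.127). At 9 months the air lungs were at 21.0, 21.1, 15.1 and 17.9 and the silica lungs at 14.7, 13.0, 10.2, 7.30 and 9.40. Every silica lung was then below every air lung, the lowest Fxyd1 value of any library among them, and Fxyd1 was called lower (−0.78 ± 0.16, limma adjusted p = 1.70e-04).

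At 12 months Fxyd1 read 18.3, 16.1, 15.8, 15.5 and 20.1 FPKM in air and 10.3, 17.7, 16.7, 8.52 and 9.37 in silica. Of the silica lungs 3 lay between 8.52 and 10.3 and the others within the air range, the library that stood apart among these, and the gene was called lower (−0.49 ± 0.15, limma adjusted p = 0.0132). Without that library the difference was −0.61 (limma adjusted p = 0.00154). The call at 12 months was lost when silica replicate 1, 4 or 5 was left out (limma adjusted p = 0.0528, 0.0868 and 0.0628). At 18 months the values were 16.5, 18.4, 17.9, 21.7 and 20.9 in air and 12.0, 13.6, 13.8, 8.97 and 16.5 in silica. The highest silica lung met the lowest air lung, and Fxyd1 was called lower (−0.56 ± 0.15, limma adjusted p = 0.00872), though not without silica replicate 4 (−0.44, limma adjusted p = 0.0685).

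Averaged over the 6 times, Fxyd1 fell by 0.42 ± 0.063 on the log2 scale in silica, a 1.34-fold fall (limma adjusted p = 1.03e-07). It was the 10th lowest of the 1278 tested genes, whose median difference was 0.03. The 3 genes were grouped for their directions in these data, so this rank and p are a description and no independent support. Among the tested genes 20.1% were called lower in the mean. The share called lower at single times was 0.391% at 1 month, 2.35% at 3, 6.42% at 6, 11.3% at 9, 9.08% at 12 and 3.52% at 18 months, so Fxyd1 was called at the 3 latest times and was not called at 6 months, when more genes were called lower than at 18.

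Fxyd3, the Mat-8 gene, was higher in silica lungs at all 6 times. At 1 month it was at 27.4, 25.6, 19.2, 26.6 and 24.5 FPKM in air and 32.9, 33.8, 33.5, 34.0 and 35.8 in silica. The silica lungs were closely grouped, all above air (log2 difference 0.47 ± 0.15, limma adjusted p = 0.0417). That call was close to the threshold and was lost when any of 8 of the 10 libraries was left out (limma adjusted p = 0.0515 to 0.152) and under median centring (0.38, limma adjusted p = 0.115). At 3 months air lungs held 20.8, 20.7, 18.8, 20.4 and 18.5 and silica lungs 34.9, 36.3, 42.5, 30.8 and 29.1. The groups were far apart, and replicate 3 of silica held the highest Fxyd3 value of any library (0.78 ± 0.15, limma adjusted p = 1.49e-04).

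At 6 months the Fxyd3 values were 21.8, 17.5, 18.6, 14.5 and 20.9 FPKM in air and 32.5, 39.4, 35.1, 38.0 and 39.2 in silica. The lowest silica lung was above the highest air lung, and this was the time of the largest difference for Fxyd3 (0.97 ± 0.15, limma adjusted p = 2.40e-06). At 9 months air lungs held 21.6, 19.8, 15.1 and 19.8 and silica lungs 23.2, 34.5, 34.4, 26.7 and 36.2. All silica lungs were still above air, but silica replicate 1 came close to it (0.68 ± 0.16, limma adjusted p = 9.07e-04).

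At 12 months Fxyd3 was at 14.3, 21.9, 18.4, 18.1 and 20.7 FPKM in air and 40.7, 28.3, 15.3, 33.2 and 39.0 in silica. The overlap came from the library that stood apart, at 15.3, and without it the difference rose from 0.67 ± 0.15 (limma adjusted p = 9.15e-04) to 0.90 ± 0.13 (limma adjusted p = 1.53e-07). At 18 months the values were 15.0, 18.8, 22.8, 17.3 and 17.6 in air and 27.2, 22.4, 28.5, 29.2 and 28.2 in silica. Silica replicate 2, at 22.4, lay just under the highest air lung while the other silica lungs were above it (0.56 ± 0.15, limma adjusted p = 0.00838).

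Fxyd5, the dysadherin gene, was also higher in silica lungs at all 6 times. At 1 month it was at 14.2, 14.3, 12.1, 13.5 and 12.8 FPKM in air and 16.7, 20.4, 21.3, 19.0 and 21.3 in silica. No silica lung reached down to air (log2 difference 0.54 ± 0.14, limma adjusted p = 0.0116). At 3 months air lungs held 17.3, 13.7, 14.7, 13.1 and 15.6 and silica lungs 21.0, 23.0, 23.2, 22.8 and 17.6. The groups again did not overlap, although silica replicate 5 lay just above the highest air lung (0.52 ± 0.14, limma adjusted p = 0.00885).

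At 6 months Fxyd5 was at 15.8, 11.9, 14.6, 13.4 and 13.0 FPKM in air and 28.8, 26.8, 26.4, 27.9 and 27.1 in silica. The silica lungs were tightly grouped, and the difference was the largest for Fxyd5 (0.98 ± 0.14, limma adjusted p = 1.18e-06). At 9 months air lungs held 14.1, 15.7, 12.1 and 19.9 and silica lungs 27.4, 24.8, 28.0, 29.8 and 33.2. The groups stayed apart, with 1 air lung well above the other 3 (0.89 ± 0.15, limma adjusted p = 1.51e-05).

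At 12 months the Fxyd5 values were 16.0, 15.9, 18.6, 12.4 and 13.6 FPKM in air and 28.8, 23.2, 13.2, 28.8 and 29.1 in silica. The library that stood apart was again the only silica lung within the air range, and without it the difference rose from 0.63 ± 0.14 (limma adjusted p = 0.00111) to 0.83 ± 0.13 (limma adjusted p = 9.32e-07). With only the 12-month groups in the fit, none of the 3 genes passed the test (limma adjusted p = 0.172 for Fxyd1, 0.138 for Fxyd3 and 0.129 for Fxyd5), and 1 gene of all those tested did. At 18 months air lungs held 13.3, 16.2, 19.9, 17.5 and 12.5 and silica lungs 25.2, 19.6, 23.0, 33.7 and 19.4. Silica replicates 2 and 5 lay just under the highest air lung, and replicate 4 held the highest Fxyd5 value of any library (0.58 ± 0.14, limma adjusted p = 0.00392).

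**Figure D1:**
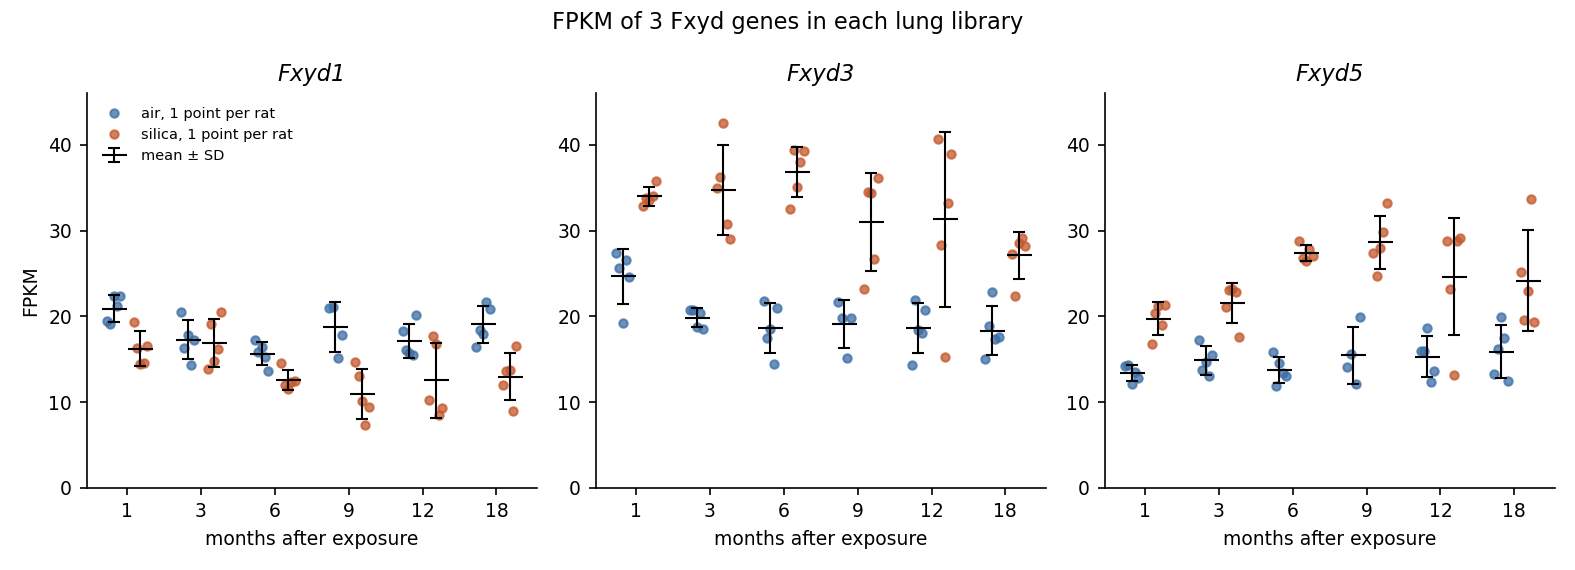
FPKM of Fxyd1, Fxyd3 and Fxyd5 (vertical axis, from 0) in every lung library by months after exposure (horizontal axis), with air in blue, silica in orange, 1 point per rat and bars for the mean ± SD. The silica points of Fxyd3 and Fxyd5 sit above air except for 1 library at 12 months and 1 and 2 libraries at 18 months, while those of Fxyd1 sit below or within air.

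Averaged over the 6 times, Fxyd3 was higher in silica by 0.69 ± 0.062 on the log2 scale (1.61-fold, limma adjusted p = 1.37e-13) and Fxyd5 by 0.69 ± 0.060 (1.61-fold, limma adjusted p = 3.18e-14). Both rises were of nearly the same size, the 36th and the 35th highest among the tested genes. These ranks and p likewise describe genes grouped for their directions in these data. Of all tested genes 37.5% were called higher in the mean. At single times 8.45% were called higher at 1 month, 15.9% at 3, 21.2% at 6, 19.5% at 9, 14.6% at 12 and 11.8% at 18 months. Of the calls in the mean, 65.1% were higher with FPKM as deposited, 44.1% after median centring of each library and 41.1% after quantile normalization, and the direction of each of the 3 genes in the mean was the same under all of these.

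Values of the silica and air groups did not overlap for Fxyd3 and Fxyd5 at 1, 3, 6 and 9 months, and for Fxyd1 at 9 months only. Over all tested genes, either direction, the groups did not overlap for 8.84% at 1 month, 12.7% at 3, 25.2% at 6, 24.6% at 9, 3.36% at 12 and 11.1% at 18 months. None of the 3 genes was among the 3.36% at 12 months, when the library that stood apart lay in the air range for all of them. Without that library 22.0% of tested genes did not overlap at 12 months, with Fxyd3 (28.3 to 40.7 FPKM in silica) and Fxyd5 (23.2 to 29.1) among them and Fxyd1 (8.52 to 17.7) still overlapping.

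**Figure D2:**
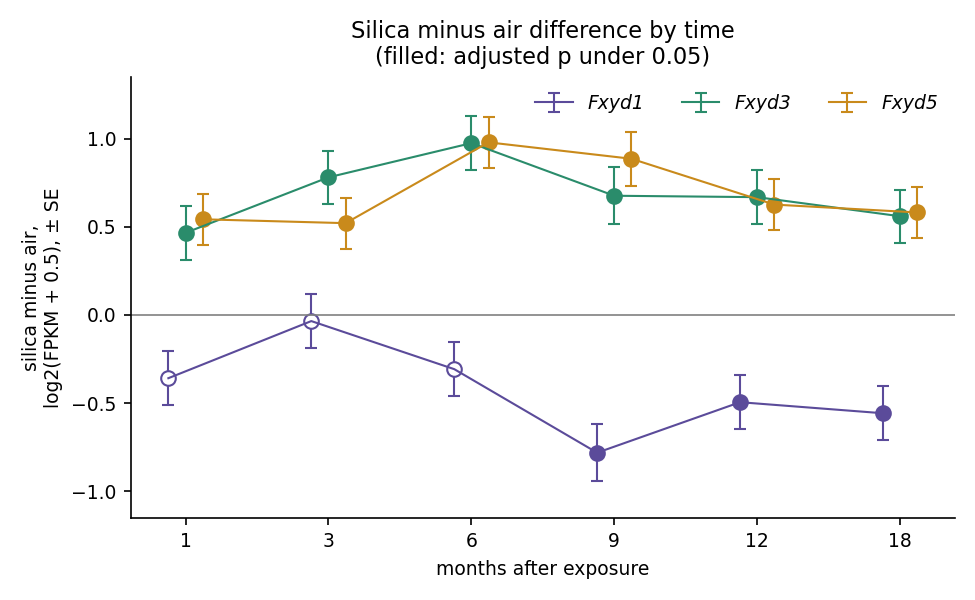
Difference between silica and air on the log2(FPKM + 0.5) scale, ± SE (vertical axis), by months after exposure (horizontal axis) for the 3 genes, with filled points where the limma adjusted p is under 0.05. Fxyd3 and Fxyd5 run together between 0.47 and 0.98, and Fxyd1 runs between −0.03 and −0.78, with filled points from 9 months on.

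No change of the silica difference with time passed the test for any of the 3 genes. The F statistic over the 6 times was 2.65 for Fxyd1 (limma adjusted p = 0.272), 1.37 for Fxyd3 (limma adjusted p = 0.561) and 1.75 for Fxyd5 (limma adjusted p = 0.431), and 1.33% of all tested genes passed. The later calls of Fxyd1 are therefore not shown to differ from its uncalled 1-, 3- and 6-month values. Fxyd1 means in silica were 16.3 ± 2.01, 16.9 ± 2.81, 12.6 ± 1.17, 10.9 ± 2.95, 12.5 ± 4.34 and 13.0 ± 2.77 FPKM from 1 to 18 months (SD, n = 5 each). Neighbouring means from 6 months on differed by less than the larger of their SDs. Fxyd5 means in silica were 19.7 ± 1.93, 21.5 ± 2.35, 27.4 ± 0.964, 28.6 ± 3.13, 24.6 ± 6.85 and 24.2 ± 5.88 (SD, n = 5 each), with the same holding from 6 months on. Fxyd3 means in silica were 34.0 ± 1.11, 34.7 ± 5.27, 36.8 ± 2.97, 31.0 ± 5.69, 31.3 ± 10.2 and 27.1 ± 2.73 (SD, n = 5 each), highest at 6 months and lowest at 18. Without the library that stood apart the 12-month means were 11.5 ± 4.21 for Fxyd1, 27.5 ± 2.85 for Fxyd5 and 35.3 ± 5.66 for Fxyd3 (SD, n = 4 each).

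In air lungs Fxyd3 was the only one of the 3 genes to pass the test between 1 and 18 months. Its mean went from 24.7 ± 3.24 FPKM at 1 month to 18.3 ± 2.88 at 18 months (SD, n = 5 each), with 17.4% of tested genes called higher and 4.46% lower between these ages, and the fall of 0.42 ± 0.15 on the log2 scale passed the test (limma adjusted p = 0.0388). Leaving out any of 8 of the 10 libraries ended that call (limma adjusted p = 0.0513 to 0.111), as did testing without a filter on low values (limma adjusted p = 0.0639). The air difference with age was −0.13 ± 0.15 for Fxyd1 (limma adjusted p = 0.586) and 0.22 ± 0.14 for Fxyd5 (limma adjusted p = 0.287). Across the 6 times the air means of Fxyd1 lay between 15.7 ± 1.38 at 6 months and 20.9 ± 1.55 at 1 month, and those of Fxyd5 between 13.4 ± 0.958 at 1 month and 15.9 ± 3.07 at 18 months (SD, n = 5 each).

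The opposite shifts changed the order of the 3 genes within lungs. In air Fxyd5 was usually the lowest: it exceeded Fxyd1 in 3 of 29 air libraries and in 27 of 30 silica libraries. The log2 ratio of Fxyd5 to Fxyd1 within a library, which does not depend on how the library was scaled, averaged −0.64 ± 0.21, −0.21 ± 0.07, −0.19 ± 0.13, −0.29 ± 0.32, −0.17 ± 0.30 and −0.28 ± 0.32 in air from 1 to 18 months (SD, n = 5, and 4 at 9 months). In silica it averaged 0.28 ± 0.29, 0.36 ± 0.35, 1.13 ± 0.08, 1.43 ± 0.51, 0.99 ± 0.92 and 0.89 ± 0.65 (SD, n = 5 each).

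At 6 months the silica ratios spanned only 0.99 to 1.20, and at 9 months they reached 2.03. At 12 months they ran from −0.34, in the library that stood apart, to 1.76, and averaged 1.32 ± 0.63 without it (SD, n = 4). The 3 silica libraries with Fxyd5 below Fxyd1 were 1 each at 1, 3 and 12 months. Fxyd3 was above Fxyd1 in 22 of 29 air and 29 of 30 silica libraries, and above Fxyd5 in 25 of 29 and 27 of 30, so the order of the pair that rose together was much the same in both. These ratios combine genes chosen for their opposite directions and are given as values without a test.

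**Figure D3:**
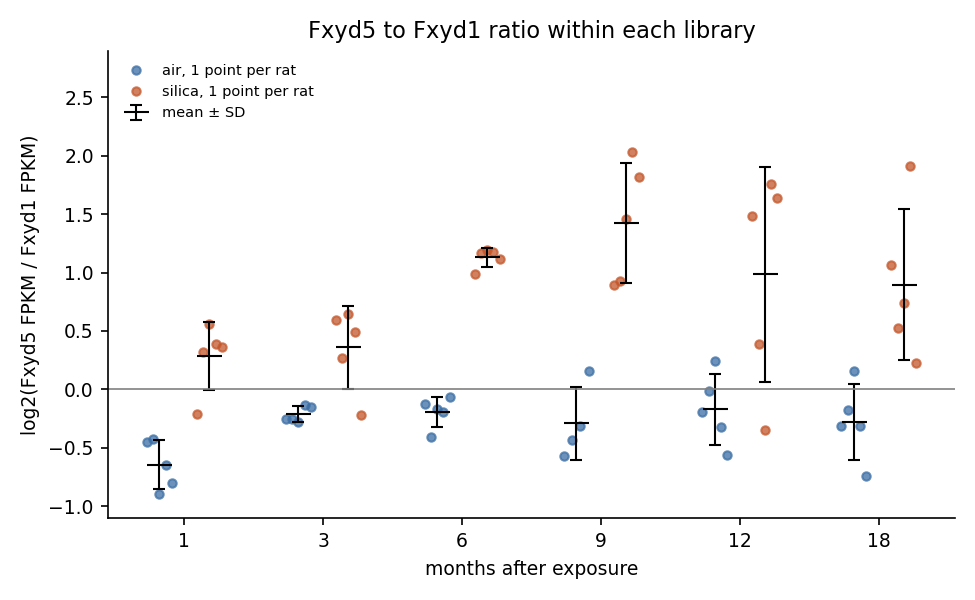
Log2 ratio of Fxyd5 to Fxyd1 FPKM in each library (vertical axis) by months after exposure (horizontal axis), air in blue and silica in orange, 1 point per rat, with bars for the mean ± SD. Points above 0 hold more Fxyd5 than Fxyd1, which was so in 27 of 30 silica and 3 of 29 air libraries.

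Among silica lungs, those with more Fxyd5 held less Fxyd1. The genes were chosen for their directions in silica, so the 6 correlations, of 3 pairs in 2 treatments, are given as a description with no test, and lungs of 1 time share their group's level. Over the 30 silica libraries Pearson's r between the log2 levels of Fxyd1 and Fxyd5 was −0.77 and Spearman's rho −0.78. It was −0.77 without the 2 libraries farthest from the median of Fxyd1, −0.81 without the library that stood apart and −0.70 within times (−0.69 without that library). In the 29 air libraries r was 0.12, rho 0.16 and r within times 0.20.

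Fxyd3 and Fxyd5, which both rose, gave r of 0.47 and rho of 0.29 in silica. Their r was 0.10 without the 2 libraries farthest from the median of Fxyd3 and 0.19 without the library that stood apart. Within times it was 0.73, and 0.40 without that library. In air r was 0.11, rho 0.15 and r within times 0.40. For Fxyd1 and Fxyd3 in silica r was −0.19 and rho −0.23, with r of −0.30 without the 2 farthest libraries and −0.11 without the library that stood apart. Within times it was −0.51, and −0.40 without that library. In air r was 0.35, rho 0.31 and r within times 0.10.

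The rest of the FXYD and pump family could be followed only in part, since 4 of 19 listed genes other than the 3 were in the table. Entries found in the gene annotation were almost all of chromosome 1, so a missing gene says nothing of its level in lung. Fxyd7, a family member best known from brain, lies between Fxyd5 and Fxyd1 and was the only one of the 4 to pass the filter, at a median of 1.14 FPKM in air and 0.863 in silica. It fell with Fxyd1 in the mean over times (−0.35 ± 0.10, limma adjusted p = 0.00218) and was called lower at 9 months (−0.75 ± 0.26, limma adjusted p = 0.0208). Atp4a, the gastric proton pump, was listed at 0 in 49 of 59 libraries, and Nkain2, which encodes a partner of the pump's beta subunit, in 52. The pump's main lung subunits were not analysed here.

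Of 26 listed genes of sodium, chloride, potassium and water transport in lung epithelium, 10 were in the table and 9 were tested. In the mean over times 5 rose and 1 fell, where 37.5% of all tested genes were called higher and 20.1% lower, with a median of 0.24 against 0.03 over all tested genes (5 and 2 with quantile normalization). Kcnn4, a calcium-activated potassium channel, rose most (0.61 ± 0.066, limma adjusted p = 3.14e-11). Furin, a protease that cleaves and activates the epithelial sodium channel, rose by 0.29 ± 0.037 (limma adjusted p = 2.09e-09), and Sgk1, a kinase that raises that channel at the cell surface, by 0.29 ± 0.041 (limma adjusted p = 2.86e-08). Prss8, another protease acting on the channel, rose by 0.24 ± 0.034 (limma adjusted p = 3.50e-08).

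The 2 channel subunits in the table, Scnn1b and Scnn1g, gave different results. Scnn1b rose by 0.25 ± 0.044 (limma adjusted p = 3.03e-06), from a median of 4.44 FPKM in air to 5.40 in silica. Scnn1g, at 9.20 and 9.76 FPKM, gave 0.03 ± 0.036 (limma adjusted p = 0.445), a value that turns negative under median centring (−0.03) and quantile normalization (−0.06). Kcne3, a regulatory potassium channel subunit, fell by 0.24 ± 0.047 (limma adjusted p = 2.80e-05). At single times the list had 1 call higher and 0 lower at 1 and at 3 months, 5 and 1 at 6, 5 and 0 at 9, 3 and 1 at 12 (5 and 1 without the library that stood apart), and 3 and 0 at 18 months. The shares of all tested genes called higher and lower were 8.45% and 0.391% at 1 month, 15.9% and 2.35% at 3, 21.2% and 6.42% at 6, 19.5% and 11.3% at 9, 14.6% and 9.08% at 12 (21.9% and 13.8% without that library) and 11.8% and 3.52% at 18 months.

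A list of 24 genes covered sodium and calcium exchange and kinases, phosphatases and related signalling genes, not all of which act on phospholemman directly. The exchanger gene in the table, Slc8a2, did not pass the filter, at a mean of 0.0267 FPKM, so no exchanger was tested. Of the list 11 were in the table and 8 were tested. In the mean 1 rose and 3 fell (37.5% and 20.1% of all tested genes), with a list median of −0.06. Without the library that stood apart 2 rose and 3 fell, and with quantile normalization 0 and 4. Those that fell were Akap12, a scaffold for protein kinases A and C (−0.42 ± 0.051, limma adjusted p = 8.63e-10), Ppp1r14a, a kinase C-controlled inhibitor of myosin phosphatase (−0.33 ± 0.057, limma adjusted p = 2.68e-06), and Adcy2, an adenylyl cyclase (−0.29 ± 0.053, limma adjusted p = 6.56e-06). Ppp2r1a, the scaffold subunit of phosphatase 2A, rose by 0.13 ± 0.025 (limma adjusted p = 9.11e-06), but by 0.0038 under quantile normalization, where it was not called (limma adjusted p = 0.897). Prkcb, a kinase C, gave −0.0030 ± 0.040 (limma adjusted p = 0.955). At single times this list had 1 call higher and 0 lower at 1 month, 0 and 1 at 3, 1 and 2 at 6, 0 and 3 at 9, 0 and 3 at 12, with or without the library that stood apart, and 0 and 1 at 18 months, to be read against the same shares.

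**Figure D4:**
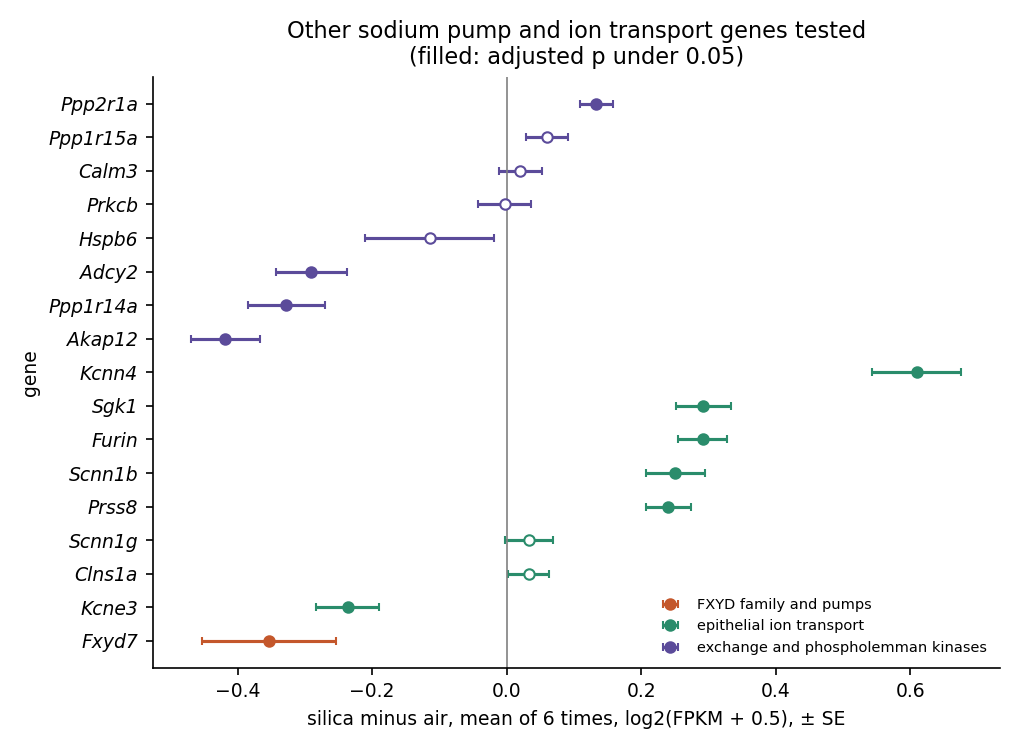
Mean over 6 times of the difference between silica and air on the log2(FPKM + 0.5) scale, ± SE (horizontal axis), for tested genes of the 3 lists (vertical axis), coloured by list and filled where the limma adjusted p is under 0.05. Kcnn4 lies farthest to the right at 0.61 and Akap12 farthest to the left at −0.42.

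Of 12 neighbours within 5 places of any of them, 8 were in the table and 6 were tested, of which 3 rose and 1, Fxyd7, fell in the mean over times. With 37.5% of all tested genes called higher and 20.1% lower, nothing particular to the neighbours is read from this count. Hpn, a membrane serine protease beyond Fxyd3, rose by 0.43 ± 0.056 (limma adjusted p = 5.01e-09). Lsr, a protein of tricellular junctions on the other side of Fxyd5, rose by 0.35 (limma adjusted p = 5.99e-10), and Usf2, a transcription factor, by 0.17 (limma adjusted p = 7.05e-07). Gramd1a gave −0.02 ± 0.030 and was not called (limma adjusted p = 0.632). It was called lower under median centring (−0.08, limma adjusted p = 0.0111) and quantile normalization (−0.10, limma adjusted p = 0.00212). The annotated span of Fxyd3 overlaps that of Lgi4, which averaged 0.154 FPKM, and how reads in the shared stretch were assigned is not given in the sources used here.

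**Figure D5:**
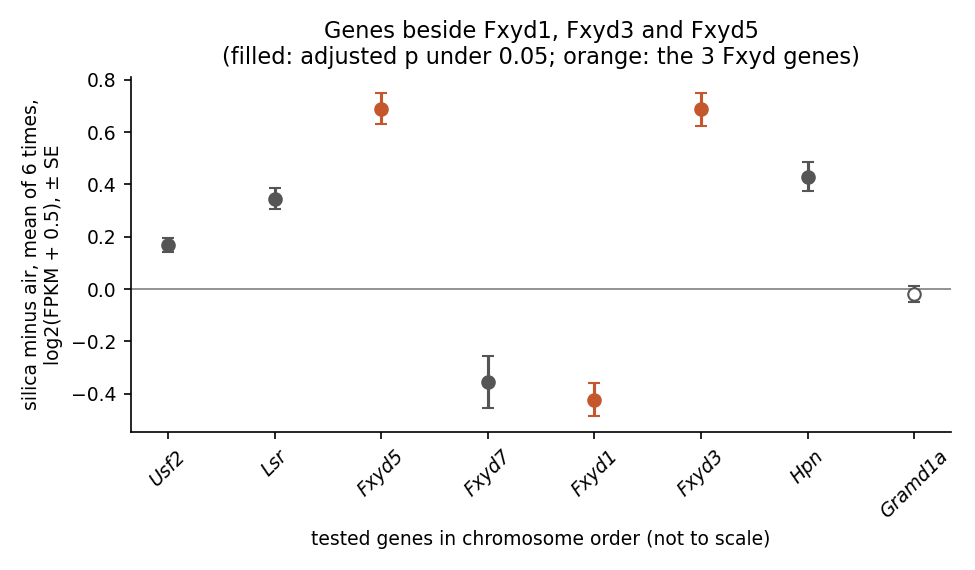
Mean over 6 times of the difference between silica and air on the log2(FPKM + 0.5) scale, ± SE (vertical axis), for 8 tested genes around the FXYD cluster in chromosome order (horizontal axis, not to scale), with the 3 genes in orange and filled points where the limma adjusted p is under 0.05. Fxyd7 and Fxyd1 at −0.35 and −0.42 lie between Fxyd5 and Fxyd3, both at 0.69.

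Genes whose levels over the 59 libraries were most like each of the 3 differed between them. For Fxyd1 they were Slc7a10, an amino acid transporter (Pearson's r 0.82, and 0.63 after subtracting group means), Syne1, which encodes nesprin-1 (0.81 and 0.65), Dmpk, the myotonic dystrophy kinase (0.77 and 0.67), Inpp5a (0.76 and 0.50) and Prkcdbp, a caveolar protein (0.76 and 0.45). The most opposed to Fxyd1 were Cadm4, an adhesion molecule, and Ftl1, the ferritin light chain (both −0.82). For Fxyd3 the closest were Prc1 (0.90 and 0.66), Prcp (0.90 and 0.73), the mucosal chemokine Cxcl17 (0.90 and 0.66), the ATP receptor P2ry2 (0.87 and 0.68) and the surfactant lipid enzyme Lpcat1 (0.87 and 0.69).

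For Fxyd5 the closest were Plaur, the urokinase receptor (0.92, and 0.74 after subtracting group means), Rnaset2 (0.92 and 0.78), Napsa (0.92 and 0.71), Pld3 (0.92 and 0.76) and Enpp3 (0.91 and 0.67). The most opposed were Igf1r (−0.80) and Lipe (−0.74) to Fxyd3, and to Fxyd5 a second Syne1 entry (−0.85) and Syne1 itself (−0.83). These r span air and silica libraries, so genes that shift with silica score high, and they are given as a ranking with no test.

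Markers of several cell types differed between silica and air lungs, and in pieces of whole lung fewer cells of a type and less RNA per cell cannot be told apart. Of 9 tested airway and alveolar epithelium markers, 8 were called higher and 0 lower in the mean over times, where 37.5% and 20.1% of all tested genes were. The other marker, Ceacam1, was called lower under median centring, quantile normalization and without the library that stood apart. The summed FPKM of the 9 ran from 242 to 296 in air and 258 to 511 in silica. Of 20 tested myeloid and leukocyte markers 14 were called higher and 2 lower (13 and 4 with median centring, 12 and 3 with quantile normalization, 14 and 1 without the library that stood apart), with sums of 174 to 259 in air and 189 to 400 in silica. The sums of both lists did not overlap between silica and air at 5 of 6 times, and the library that stood apart had the lowest silica sum of each, 258 and 189. Cd177, by which that library was picked, is among the 20 markers, so the low myeloid sum is not independent of that choice. No tested marker of either list was at 0 in any library. Sums of smooth muscle and pericyte markers did not overlap at 4 times, of endothelial markers at 2, and of striated muscle and of fibroblast markers at 0. No share over all tested genes was computed for such sums.

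Against the 20.1% of all tested genes called lower, 5 of 5 tested endothelial markers were (sums of 88.3 to 107 FPKM in air and 63.1 to 99.8 in silica), and 2 of 4 smooth muscle and pericyte markers, Synm and the Ppp1r14a counted above (42.2 to 68.8 and 29.6 to 63.2). Of the latter 3 of 4 were called lower under median centring, quantile normalization and without the library that stood apart. Of 6 tested striated and heart muscle markers 0 were higher and 2 were lower, Alpk3 (−0.34) and Cox8b (−0.49), and their sums ran from 7.47 to 138 in air and 4.87 to 184 in silica, overlapping at every time, with Ckm at 0 in 3 libraries of each treatment. After subtracting group means, the mean level of these 6 markers had Pearson's r of 0.63 with Fxyd1, −0.13 with Fxyd3 and −0.21 with Fxyd5. These r are given with no test. With the mean level of these 6 striated and heart muscle markers as a covariate, chosen after seeing the data, the Fxyd1 difference over times was −0.38 ± 0.050 (limma adjusted p = 5.60e-09), Fxyd3 0.68 and Fxyd5 0.68. This cannot decide the part of muscle in the results, since 2 of the 6 were themselves called lower in silica. Of 9 fibroblast and matrix markers 5 were called higher and 3 lower (5 and 4 with quantile normalization). The part of any of these cell types, striated and heart muscle included, in the results for the 3 genes was not tested.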

How the data were processed

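RNA from a piece of lung of 59 rats was sequenced with the TruSeq Stranded Total RNA kit after Ribo-Zero Gold depletion, per the labels' protocols. Tools named per the submitters' processing notes, without role or order, were Cufflinks 2.1.1, Bowtie2 2.2.9, TopHat2 2.0.9, bcl2fastq 2.19 and Trimmomatic 0.35. The authors deposited FPKM, with 1 column per library, and which genome build and annotation they rest on is not given in the sources used here. A total of 2888 entries was present, the last of them incomplete, with 31 values, which was left out. Of the names, 2061 were found in RefSeq's GRCr8 gene table, 99.3% of them on chromosome 1, so genes elsewhere were not analysed here.

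From the FPKM, log2(FPKM + 0.5) was fitted with limma 3.58.1 in R 4.3.3, all 12 groups in 1 fit with 47 residual degrees of freedom, an intensity trend and no batch term, since none is labelled. Entries with at least 1 FPKM in at least 4 libraries were tested, p was adjusted by Benjamini-Hochberg over the 1278 tested entries within each comparison, and 0.05 was the threshold. A fold change on this scale understates the change of low genes. Depth in reads is unknown: of 1997 low values of 261 genes, 63.7% lay within log2 0.1 of 1 step, which gave relative depth but not whole reads for most genes. Fits were tested on simulated data. Each library has its own number in the labels and comes from 1 rat. Correlations were computed in Python 3.11.15 with scipy 1.17.1, with no test.

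The 3 genes and all gene lists were chosen with earlier results of these data known. Values are named for the 3 genes, all tested family members, up to 4 list genes with the smallest p in the mean over times, the 5 most alike and 2 most opposed named genes and the neighbours, by a written rule, and some of these are not reported here. The other ion transport and kinase genes, Scnn1b, Kcne3, Scnn1g and Prkcb, and the markers were added for comparison after their values were seen. Alternatives changed the pseudocount, the filter, the scaling, the groups in the fit, library weights and the trend, and left out each library in turn.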

Additional observations from a re-analysis of the deposited data

Results flagged for a closer look

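In the silica group at 18 months, replicate 2 held 22.4 FPKM of Fxyd3 while the other 4 lungs lay between 27.2 and 29.2, a gap that made up most of the group's range. The gap was 0.712 of the range, against a threshold of 0.71 for 5 lungs. It was the only library to stand out in this way among 36 tests of a gene in a group of 4 or 5. Chance alone gives about 1 in 20 such tests, so 1 among 36 is no more than chance gives. Fxyd1 and Fxyd5 in the same library, at 13.6 and 19.6 FPKM, did not stand out.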

How the results depend on the processing

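In the mean over times the 3 genes kept their direction and call in each setting run, with Fxyd1 between −0.54 and −0.38, Fxyd3 between 0.54 and 0.72 and Fxyd5 between 0.55 and 0.71. With 1 library left out they lay between −0.44 and −0.40, 0.67 and 0.73, and 0.67 and 0.72. Of the results of the 3 genes over all comparisons, 538 were unchanged with a library left out, 20 lost the call and 3 reversed. Under the other settings 245 were unchanged, 7 lost the call, 5 gained it and 1 reversed. Unchanged means the same direction and still called or still not called. It includes results not called to begin with, and the F statistics, which have no direction and were not called in any setting. All reversals were of Fxyd1 at 3 months, near 0 throughout: 0.030 without silica replicate 1, 0.0085 without silica replicate 3, 0.029 without air replicate 1 and 0.033 with the muscle marker covariate, chosen after seeing the data. For the changes below, the cause was not tested unless stated.

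Fxyd3 at 1 month lost its call with no filter on low values (0.47, limma adjusted p = 0.0725), which tests more genes. It also lost the call with median centring (0.38, limma adjusted p = 0.115) and quantile normalization (0.38, limma adjusted p = 0.0803). Its fall with age in air lost the call with no filter (−0.42). Fxyd1 gained a call at 1 month with quantile normalization (−0.52) and with only the groups compared in the fit (−0.36), and at 6 months with quantile normalization (−0.47), only the groups compared (−0.31) and library weights (−0.35). With only the 12-month groups in the fit Fxyd1 (−0.49), Fxyd3 (0.67) and Fxyd5 (0.63) lost their calls.

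The number of genes called went from 736 to 449 in the mean and from 279 to 175 with age in air when at least 5 FPKM was required, which tests fewer genes. It went from 113 at 1 month to 65 with median centring and 198 with library weights. It went from 353 to 536 at 6 months and from 17 to 153 for variation with time with library weights, and from 302 to 1 at 12 months and 196 to 130 at 18 months with only the groups compared. The share of calls that were higher was 61.6% to 95.6% at single times as deposited, 47.6% to 58.9% with median centring and 43.4% to 61.0% with quantile normalization, and 79.6%, 42.5% and 48.5% with age in air.

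With 1 library left out, Fxyd3 at 1 month ran from 0.38 to 0.51 and its change with age in air from −0.51 to −0.35. Fxyd1 ran from −0.11 to 0.030 at 3 months, −0.63 to −0.38 at 12 months and −0.65 to −0.44 at 18 months. Called genes ran from 44 (without air replicate 2) to 136 at 1 month, 194 (without silica replicate 1) to 457 (without silica replicate 3) at 12 months, and 112 (without silica replicate 4) to 214 at 18 months. At 1 month 66 were called without silica replicate 5, and at 12 months 196 without silica replicate 4. For variation with time they ran from 10 to 78, the highest without silica replicate 3 of 12 months. They were 10 without air replicate 2 or silica replicate 5 of 1 month, 11 without silica replicate 1 or air replicate 3 of 3 months or silica replicate 4 of 9 months, and 30 without silica replicate 2 of 9 months. Leaving out silica replicate 3 of 12 months gave limma adjusted p of 0.119 for Fxyd1, 0.188 for Fxyd3 and 0.183 for Fxyd5. No paired analysis was possible because every rat has its own number in the labels and no number is shared between groups as a pair. Depth in reads is unknown, so no counting error can be given.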
